A study of Mus musculus with 11 samples.

Results

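The nuclear genes for subunits of the mitochondrial respiratory chain were compared between splenic dendritic cells of naive mice and of mice carrying Eµ-Myc lymphoma, a B cell lymphoma that a Myc transgene drives. The genes were taken by symbol from the array's probe table: the Nduf subunits of complex I, the Sdh subunits of complex II, the Uqcr subunits of complex III, the Cox4 to Cox8 subunits of complex IV and the Atp5 subunits of complex V. This gave 80 of the 22180 genes tested, with 33 genes for complex I, 4 for complex II, 8 for complex III, 17 for complex IV and 18 for complex V. The 80 include 2 pseudogenes, Uqcrh-ps1 and Atp5c1-ps, and leave 78 subunit genes. Probesets naming several genes (10 of the 99 that match) were left out.

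Both groups were C57BL/6 mice. The 6 naive arrays came from mice labelled naive and the 5 exposed arrays from Eµ-Myc transfer mice, whose spleens held tumour cells at an average of 10 to 36% of lymphocytes. Dendritic cells were sorted as CD11c+ MHC class II+ with a stated purity over 95%, and the labels give neither the age of the mice, nor the time after transfer, nor whether each array is a separate mouse, so every p-value measures the spread between these samples. Each array carries log2 expression values made by the authors, and all differences are exposed minus naive.

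The respiratory chain moves electrons from NADH (complex I) and succinate (complex II) through coenzyme Q, complex III and cytochrome c to oxygen at complex IV, and complex V uses the resulting proton gradient to make ATP. Complexes I, III, IV and V are built from nuclear subunits and from a few subunits encoded in mitochondrial DNA, whereas complex II is wholly nuclear. Resting dendritic cells rely largely on this oxidative route, and activation through Toll-like receptors is known to shift them towards glycolysis.

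The arrays were of one scale, with medians between 5.53 and 5.61, 75th percentiles between 7.43 and 7.54 and correlations between any 2 arrays from 0.989 to 0.996. Genes of the dendritic cell sort and lineage list (5 of 6 measured) averaged 11.88 to 11.99 on the naive arrays and 11.77 to 11.95 on the exposed arrays. Arrays numbered 1 to 3 in their titles differ from those numbered 4 to 6 for reasons the labels do not give, with 731 of all genes (3.3%) different between these number sets. Results are therefore also given within each number set. The split was chosen because earlier results of these data showed it, so this count does not test it. P-values between the number sets, and fits that block by them, rest on the same split. Of the 80 genes, 72 had a mean level above 5.60, the 95th percentile of the 1088 olfactory receptor genes, which served as a mark for dim genes.

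No respiratory chain gene passed the test between naive and exposed cells, although most of them had slightly higher means in the exposed cells. The limma fit over all genes called 0 of the 80 at an adjusted p under 0.05, where it called 1.42% of all genes, 195 of them higher (0.879%) and 121 lower (0.546%). At an unadjusted p under 0.05 there were 10 of the 80 (12.5%), close to the 12.2% of all genes. Of the 80 genes 71 had a positive difference, and 53.5% of all genes did, with a median of 0.070 (1.05-fold) against 0.0082 over all genes and 0.014 over the 12646 genes above the dim mark. With every array shifted to a common 75th percentile these counts became 60 of 80 and 39.0%, with medians of 0.035 and -0.027.

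The limits of the fit show what size of change these arrays leave possible. For 66 of the 80 genes the 95% limits of the difference lay within 0.3 on the log2 scale in both directions, which is a 1.23-fold change. The same held for 15562 of all 22180 genes and for 8885 of the 12646 genes above the dim mark. The farthest limit was that of Ndufs5, a dim gene in these cells, at -0.43. The typical standard error was 0.065, and the median SD between arrays was 0.10 in naive and 0.099 in exposed cells. In RNA from a mixed sort, fewer cells of a type and less RNA per cell cannot be told apart.

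**Figure D1:**
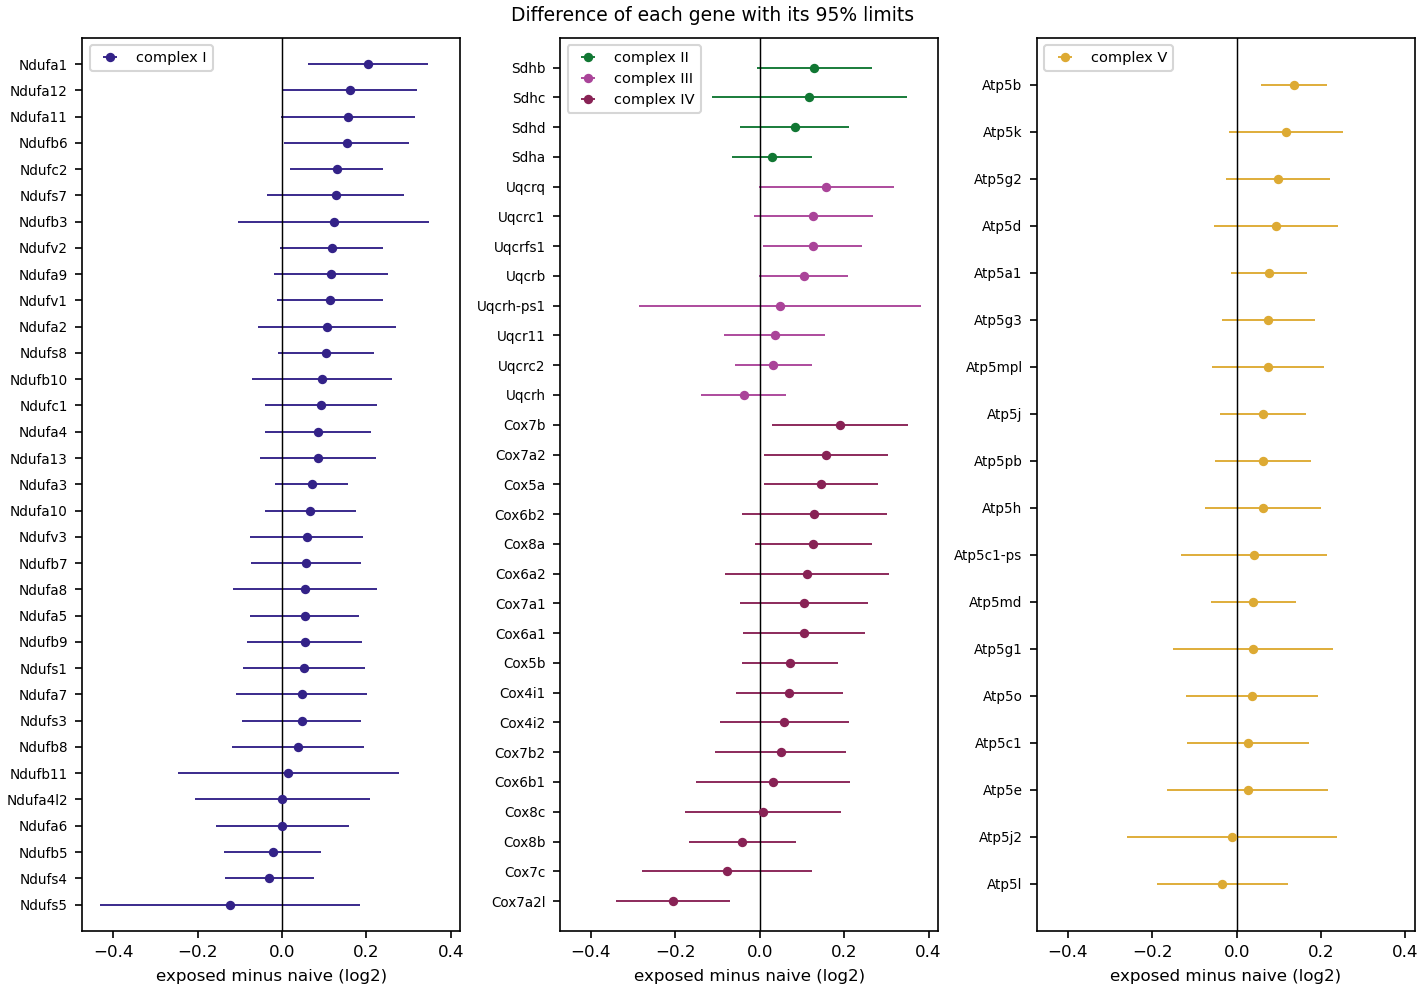
Difference between exposed and naive cells for each of the 80 genes (x axis, log2; y axis, genes grouped by complex). Points are limma estimates from 6 naive and 5 exposed arrays and bars their 95% limits; 71 points lie above 0 and 9 below, from -0.21 (Cox7a2l) to 0.20 (Ndufa1).

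Averaged over the genes of a complex, the difference was positive for all 5, and the complexes were not tested against each other. Complex I averaged 8.44 ± 0.05 (SD, n = 6) on the naive arrays. On the exposed arrays it averaged 8.51 ± 0.06 (SD, n = 5), which is 0.073 more. The mean differences of the others were 0.090 for complex II, 0.074 for complex III, 0.061 for complex IV and 0.057 for complex V. After the shift to a common 75th percentile they were 0.038, 0.054, 0.039, 0.025 and 0.021 for complexes I to V. Exposed and naive arrays overlapped for each of the 5 complexes: the naive maximum was exceeded by 3 exposed arrays for complexes I, III and V, by 4 for complex IV and by 1 for complex II.

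Single arrays differed as much within a group as the groups did. The mean over all 80 genes ranged from 8.42 to 8.53 on the naive arrays, with a median of 8.46. On the exposed arrays 1, 2, 3, 4 and 6 it was 8.51, 8.60, 8.56, 8.47 and 8.56. Exposed array 4 thus lay inside the naive range, with 40 of the 80 genes above their naive median, while exposed arrays 2 and 6 had 65 each and exposed array 3 had 64. Naive array 4 had 61 and naive array 5 only 23.

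**Figure D2:**
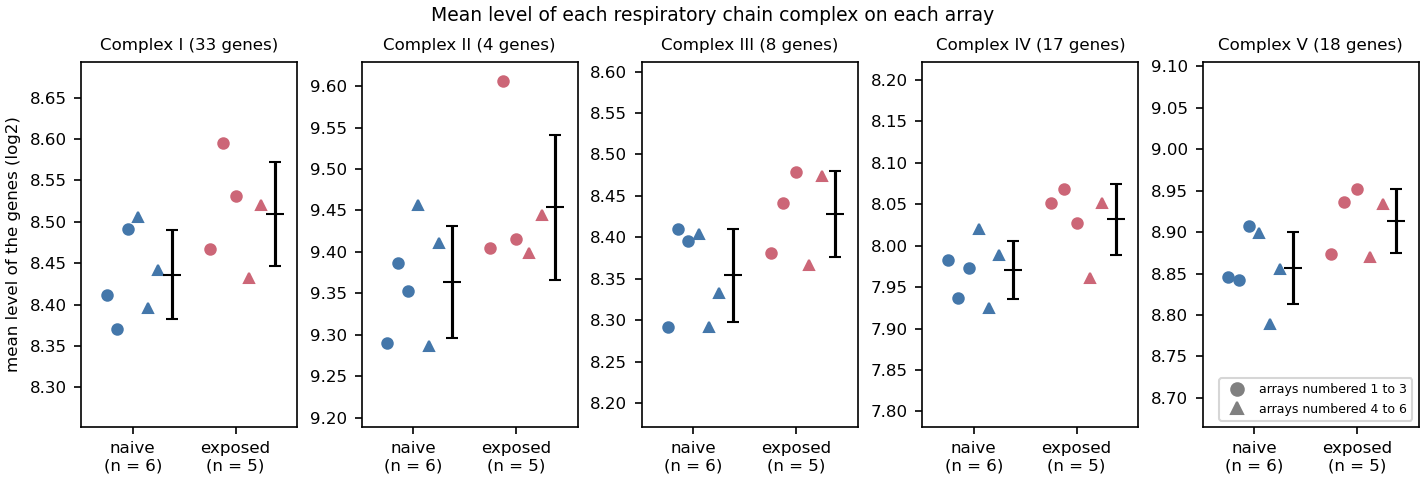
Mean log2 level of the genes of each complex on each array (y axis, a span of 0.44 in every panel), for 6 naive and 5 exposed arrays; circles are arrays numbered 1 to 3, triangles arrays numbered 4 to 6, and black bars the mean ± SD. The groups overlap in every panel, and exposed array 4 lies within the naive range for all 5 complexes.

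Complex I feeds electrons from NADH into the chain. The subunits of its NADH-oxidising tip, Ndufv1, which binds NADH and flavin, Ndufv2 and the iron-sulfur protein Ndufs1, differed by 0.11, 0.12 and 0.052. Those that pass electrons on to coenzyme Q, Ndufs3, Ndufs7 and Ndufs8, differed by 0.046, 0.13 and 0.10. Adjusted p-values of these 6 core subunits lay between 0.430 (Ndufv2) and 0.854 (Ndufs3). The 14 Ndufa genes, counted by name with Ndufa4 and its relative Ndufa4l2, were all positive, from 0.00024 (Ndufa6) to 0.20 (Ndufa1). Of the 10 Ndufb and Ndufc genes 9 were positive. The shift to a common 75th percentile lowers every difference by 0.036. It put Ndufa4l2 (0.0011 before, -0.034 after), Ndufa6 and Ndufb11 (0.015 before) below 0.

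Ndufa1, a small X-linked membrane-arm subunit needed for assembly of complex I, had the largest positive difference of the 80 genes. Its level on the naive arrays ran from 8.51 over a median of 8.58 to 8.69 (probeset 17541036). The exposed arrays 1, 2, 3, 4 and 6 gave 8.83, 8.95, 8.87, 8.59 and 8.72. All exposed arrays but number 4 lay above every naive array, and number 4 sat in the middle of the naive values. The difference was 0.20 ± 0.07 (SE; 1.15-fold; adjusted p = 0.178). Arrays 1 to 3 alone gave 0.30 and arrays 4 to 6 alone 0.057, and the interaction of group and number set did not pass (adjusted p = 0.992). With each array left out in turn, the adjusted p ran from 0.0647 (without exposed array 4) to 0.399.

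Next in complex I came Ndufa12, an accessory subunit of the NADH-oxidising arm, at 0.16 (adjusted p = 0.396), Ndufa11 at 0.16 and Ndufb6 at 0.15. For Ndufb6 and for Ndufa3 (0.070), as for Ndufa1, 4 of the 5 exposed arrays were above all naive arrays. The 3 genes below 0 were Ndufs5 (-0.12, adjusted p = 0.808), Ndufs4 (-0.030), whose protein helps to hold the NADH-oxidising arm in place, and Ndufb5 (-0.022).

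Complex II, succinate dehydrogenase, also belongs to the tricarboxylic acid cycle. Its 4 genes were all positive, though none with an unadjusted p under 0.05. The iron-sulfur subunit Sdhb was at 8.68 to 8.90 on the naive arrays, with a median of 8.82, and at 8.92, 9.12, 8.90, 8.83 and 8.87 on the exposed arrays 1, 2, 3, 4 and 6. Exposed arrays 1 and 2 lay above the naive range and the difference was 0.13 (adjusted p = 0.448). The flavoprotein Sdha, which oxidises succinate, differed by 0.029, the least of the 4, and by -0.0062 after the shift to a common 75th percentile. The membrane anchors Sdhc and Sdhd differed by 0.12 and 0.083. Exposed array 2 carried the highest Sdhc level, 8.91 against 8.51 to 8.58 on the other exposed arrays, and the mean difference of complex II was 0.052 without that array.

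Complex III passes electrons from coenzyme Q to cytochrome c. Its Rieske iron-sulfur protein Uqcrfs1, one of the proteins that carry this transfer, was at 7.36 ± 0.06 (SD, n = 6) and 7.48 ± 0.08 (SD, n = 5), a difference of 0.13 (adjusted p = 0.360). The core proteins Uqcrc1 and Uqcrc2 differed by 0.13 and 0.033, the latter by -0.0029 after the shift to a common 75th percentile.

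The small subunit gene Uqcrq had the largest difference of complex III, 0.16 (adjusted p = 0.416). Its naive arrays ran from 7.01 over 7.11 to 7.19, and the exposed arrays 1, 2, 3, 4 and 6 gave 7.28, 7.42, 7.40, 7.04 and 7.16. All 3 exposed arrays of the first number set lay above the naive arrays and both of the second lay among them. Within the sets the difference was 0.32 and -0.056, with an unadjusted p of 0.00471 for the interaction and an adjusted p of 0.992. Uqcrh, the acidic hinge protein that contacts cytochrome c, was the only subunit gene of complex III below 0 (-0.038, adjusted p = 0.825).

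Complex IV, cytochrome c oxidase, reduces oxygen. Among its nuclear subunits Cox4i1, Cox5a and Cox5b, which surround the catalytic core, the differences were 0.070, 0.15 and 0.072, with adjusted p-values of 0.715, 0.358 and 0.665. Cox7b, a small subunit needed for assembly, was the most positive of the complex. Its naive arrays ran from 9.30 over 9.55 to 9.74, and the exposed arrays 1, 2, 3, 4 and 6 gave 9.75, 9.78, 9.62, 9.68 and 9.81. The exposed values thus filled the upper end of a wide naive range, and 3 exceeded it. The difference was 0.19 ± 0.07 (SE; adjusted p = 0.301), with 0.31 in the first number set and 0.070 in the second.

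Cox7a2l, a relative of Cox7a2 whose long form links complexes III and IV into supercomplexes and whose short form, carried by C57BL/6 mice, is reported to lack that function, pointed against most of the others. The naive arrays ran from 8.76 over 8.93 to 9.04 (probeset 17347638), and the exposed arrays 1, 2, 3, 4 and 6 gave 8.81, 8.66, 8.60, 8.74 and 8.75. Of the 5 exposed arrays 4 were below every naive array. The difference was -0.21 ± 0.06 (SE; 0.867-fold; adjusted p = 0.153), the largest in either direction among the 80 genes, with -0.18 in the first number set and -0.22 in the second. Its relative Cox7a2, a subunit of complex IV itself, differed by 0.16 (adjusted p = 0.368). Their difference from each other was not tested.

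Several complex IV subunits exist as a widely expressed form and a form restricted to muscle, lung or testis. The 7 widely expressed forms, Ndufa4, Cox4i1, Cox6a1, Cox6b1, Cox7a2, Cox7b and Cox8a, were all above the dim mark and all positive, from 0.031 (Cox6b1) to 0.19 (Cox7b), although Cox6b1 turned to -0.0048 after the shift to a common 75th percentile. Ndufa4 carries a complex I name, but its protein is now known as part of complex IV. Of the 8 restricted or hypoxia-linked forms, 5 were at or below the mark: Ndufa4l2 (mean over all arrays 4.44), Cox7a1 (5.55), Cox7b2 (2.80), Cox8b (4.65) and Cox8c (5.19). The other 3, the hypoxia-responsive Cox4i2 (5.91), the muscle form Cox6a2 (6.23) and the testis form Cox6b2 (6.64), were a little above it. None of the 8 passed the test or had an unadjusted p under 0.05, with differences from -0.041 (Cox8b) to 0.13 (Cox6b2) and adjusted p-values of 0.578 or more.

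Complex V is the ATP synthase. Atp5b encodes the β subunit that holds its catalytic sites, and it was the member with the smallest p. Its naive arrays ran from 12.02 over 12.08 to 12.16 (probeset 17238278), and the exposed arrays 1, 2, 3, 4 and 6 gave 12.18, 12.25, 12.22, 12.21 and 12.26. Each of the 5 exposed values exceeded each of the 6 naive values, the only one of the 80 genes (1.25%) with groups that did not overlap, where 2.29% of all genes had such a split in either direction and 1.42% had it upwards. The difference was 0.14 ± 0.04 (SE; 1.10-fold; adjusted p = 0.0906), and its 95% limits ran from 0.058 to 0.21. The number sets gave 0.17 and 0.10. Blocking by number set left the difference at 0.14, and it passed (adjusted p = 0.0329), the only call among the 80 genes there, in a fit that called 2.78% of all genes, 1.65% of them upwards.

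Around Atp5b in the F1 part of the enzyme, the α subunit Atp5a1 differed by 0.077 (adjusted p = 0.514), the γ subunit Atp5c1 by 0.027 and the other 2, Atp5d and Atp5e, by 0.094 and 0.026. After the shift to a common 75th percentile Atp5c1 was at -0.0085. The 3 genes of the membrane c ring, Atp5g1, Atp5g2 and Atp5g3, and the 4 of the peripheral stalk, Atp5pb, Atp5h, Atp5j and Atp5o, were all positive, between 0.035 (Atp5o) and 0.098 (Atp5g2). Among the other membrane subunits Atp5k differed by 0.12 (adjusted p = 0.501), and Atp5j2 and Atp5l by -0.011 and -0.034.

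**Figure D3:**
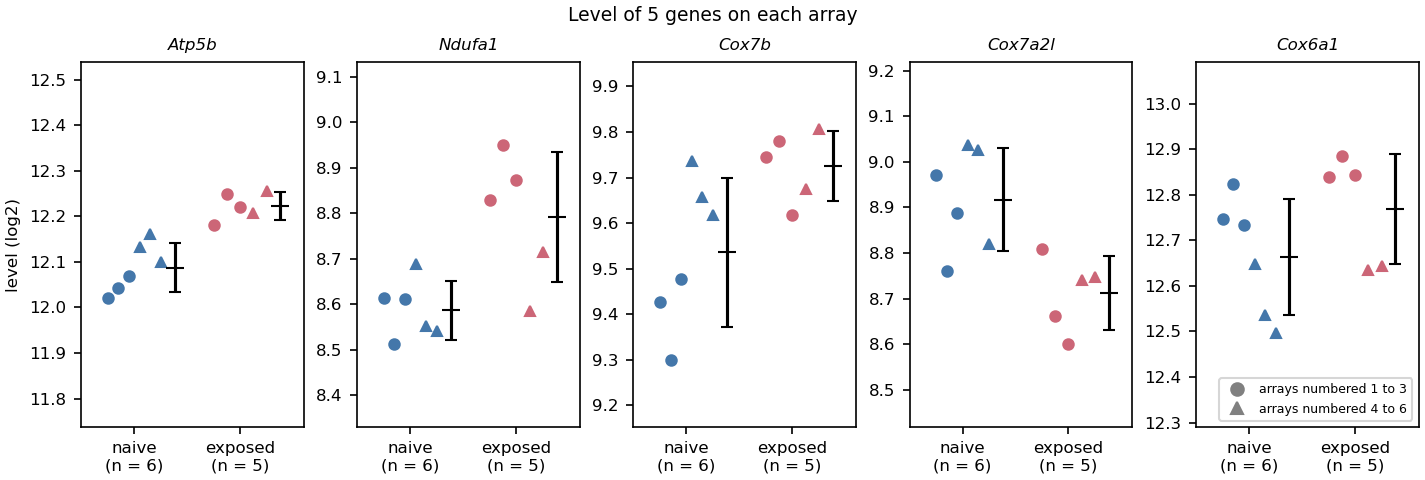
Log2 level of 5 genes on each array (y axis, a span of 0.8 in every panel), for 6 naive and 5 exposed arrays; circles are arrays numbered 1 to 3, triangles arrays numbered 4 to 6, and black bars the mean ± SD. The groups separate for Atp5b (naive up to 12.16, exposed from 12.18) and overlap for the others, and Cox6a1 follows the number sets.

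Cox6a1, the widely expressed form of a small complex IV subunit, was the only one of the 80 genes (1.25%, against 3.3% of all genes) that differed between the number sets. On naive arrays 1 to 6 it was measured at 12.75, 12.82, 12.73, 12.65, 12.54 and 12.50, and on the exposed arrays at 12.84, 12.88, 12.84, 12.63 and 12.64. Arrays numbered 1 to 3 were above arrays numbered 4 to 6 within each group. The second set was 0.21 lower (coefficient -0.21, adjusted p = 0.00997), against a difference of 0.10 between exposed and naive cells (adjusted p = 0.602).

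Over the complexes, the number sets gave unequal means. The mean difference of complex I was 0.11 in the first set and 0.029 in the second, that of complex II 0.13 and 0.037, complex III 0.068 and 0.077, complex IV 0.085 and 0.028, and complex V 0.056 and 0.054. The complex III means include the dim pseudogene Uqcrh-ps1, which differed by -0.23 in the first set and 0.36 in the second. Positive differences were found for 68 of the 80 genes in the first set and 58 in the second, with the same sign in both for 60. Over all genes 53.8% and 51.4% were positive. The limma interaction term passed for 0 of the 80 genes and 0 of all genes (unadjusted p under 0.05: 3 of the 80 and 4.25% of all), so a difference between the sets was not shown.

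Many nuclear respiratory genes share binding sites for NRF1, a regulator of nuclear respiratory genes, for GABPA (an ETS factor, also called NRF2) and for YY1 near their start, and the promoters of the genes studied were searched for their motifs on both strands. RefSeq windows (GRCm38.p6, from 250 bases before to 50 after a start) were matched for 64 of the 78 subunit genes. The palindromic NRF1 core motif stood in 15 of the 64 (23.4%) and in 7.17% of 17492 protein-coding genes. The ETS letters CCGGAAG stood in 17 (26.6%, against 12.9%) and the YY1 letters AAGATGGC in 9 (14.1%, against 3.57%). At least one of them was found for 36 of the 64 genes (56.3%) and for 21.0% of protein-coding genes. The motifs do not overlap each other in the promoters printed here, and a match is a description of letters, not of binding.

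Promoters of 3 genes, chosen to show each motif and a gene without them, are given 5′ to 3′ up to the base before the start, with matches in capitals. Cox6a1, which differed between number sets, holds the NRF1 motif at 153 to 162 and at 108 to 117 bases before its start and the ETS letters at 10 to 16 bases before it (chr5:115348959-115349208, minus strand). Atp5j, a peripheral stalk gene, holds the YY1 letters at 81 to 88 and the ETS letters at 55 to 61 bases before its start (chr16:84834977-84835226, minus strand). Atp5b, the gene whose groups did not overlap, has no match in its window (chr10:128083057-128083306, plus strand).
Cox6a1: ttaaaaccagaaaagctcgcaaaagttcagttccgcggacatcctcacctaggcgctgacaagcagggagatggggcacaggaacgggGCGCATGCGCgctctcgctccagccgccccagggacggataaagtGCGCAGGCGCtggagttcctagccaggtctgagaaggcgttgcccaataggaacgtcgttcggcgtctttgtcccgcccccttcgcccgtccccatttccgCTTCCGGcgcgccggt
Atp5j: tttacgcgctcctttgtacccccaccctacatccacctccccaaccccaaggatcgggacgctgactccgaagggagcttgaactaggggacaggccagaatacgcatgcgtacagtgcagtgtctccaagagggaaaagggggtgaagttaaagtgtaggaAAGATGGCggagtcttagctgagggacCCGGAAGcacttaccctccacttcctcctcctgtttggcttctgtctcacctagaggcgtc
Atp5b: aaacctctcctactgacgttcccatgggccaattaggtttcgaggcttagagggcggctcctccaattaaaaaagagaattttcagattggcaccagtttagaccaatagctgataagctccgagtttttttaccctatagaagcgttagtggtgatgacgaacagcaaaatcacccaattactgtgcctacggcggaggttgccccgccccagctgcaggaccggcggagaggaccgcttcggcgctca

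Of the 80 genes, 9 had a second, dimmer probeset, which gives another reading of the same gene. Those of Atp5g2 and Cox7b pointed the same way as the probeset used, at 0.10 and 0.36, as did those of Ndufa12 (0.12), Ndufa8 (0.080), Atp5d (0.030) and Atp5e (0.00088). Those of Atp5h (-0.16), Cox5b (-0.092) and Ndufa11 (-0.0087) pointed the other way. With adjustment over all 23521 probesets, the smallest adjusted p of these 9 was 0.326, for Cox7b. The second probesets of Cox7b (mean level 5.28) and Cox5b (5.17) lay below the dim mark of 5.60. Respiratory chain genes have many processed pseudogenes, so signal from near-identical copies is uncertain for these probesets.

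The subunits encoded in mitochondrial DNA did not pass the test either. Of the 13 protein genes 10 were measured, none with an unadjusted p under 0.05, with differences from -0.064 (COX3) to 0.023 (ND3) and a median of -0.017; 2 were positive, and none was after the shift to a common 75th percentile. COX1, the catalytic subunit of complex IV, was measured at 13.43 in both groups, at 13.38 to 13.51 on the naive arrays and 13.34 to 13.52 on the exposed arrays. No 95% limit of the 10 lay farther from 0 than -0.20. Apart from ND6, these genes lay between 12.77 and 13.73 on the arrays, and the highest value of any probeset on an array was 13.75 to 13.83, so they were read at the top of the scale. The contrast between mitochondrial and nuclear subunits was not tested.

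The core subunit list (19 of 20 measured) was drawn from the subunits above. It includes the membrane anchors Sdhc and Sdhd, and Cox4i1, Cox5a and Cox5b, which surround the catalytic core of complex IV. The list had 19 positive differences and a median of 0.10, or 16 and 0.069 after the shift to a common 75th percentile. It had 0 limma calls and 3 genes with an unadjusted p under 0.05. Other mitochondrial lists had 0 limma calls as well, and the genes with an unadjusted p under 0.05 numbered 9 of 71 for mitochondrial ribosomal proteins, 6 of 45 for assembly factors, 3 of 11 for electron carriers, 1 of 17 for the tricarboxylic acid cycle and 0 of 5 and 0 of 18 for nucleotide carriers and regulators, where 12.2% of all genes had such a p. Genes for mitochondrial ribosomal proteins, which make the mitochondrially encoded subunits, were positive for 67 of 71, with a median of 0.095 (62 of 71 and 0.060 after the shift to a common 75th percentile). Those with the smallest p were Mrpl51 (0.23, adjusted p = 0.119) and Mrpl45 (0.19, adjusted p = 0.152), the latter the only 1 of the 71 whose groups did not overlap, near the 1.42% of all genes with such a split upwards. Assembly factors were positive for 32 of 45 measured, with a median of 0.037, or 24 of 45 and 0.0015 after the shift. They were led by the complex I factor Ndufaf7 (-0.21, adjusted p = 0.227) and by Sco1, which delivers copper to complex IV (0.19, adjusted p = 0.293).

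Among the mobile electron carriers, cytochrome c (Cycs) was at 11.07 ± 0.08 (SD, n = 6) and 11.23 ± 0.09 (SD, n = 5), a difference of 0.16 (adjusted p = 0.216). Coq7, an enzyme of coenzyme Q synthesis, differed by 0.24 (adjusted p = 0.112). It was the 1 gene of 11 without overlap, where 1.42% of all genes had such a split upwards. In this list 5 of 11 measured genes were positive, with a median of -0.0032, or 4 of 11 and -0.039 after the shift to a common 75th percentile. In the list of pyruvate dehydrogenase and the tricarboxylic acid cycle 11 of 17 were positive (median 0.045; 10 and 0.0097 after the shift), and Mdh2, the mitochondrial malate dehydrogenase, had the largest difference, -0.18 (adjusted p = 0.214), followed in p by Sucla2, a succinyl-CoA ligase subunit (0.097, adjusted p = 0.468). The ADP/ATP carriers Slc25a5 and Slc25a4 differed by 0.069 and 0.049, in a list of 5 measured genes with 4 positive.

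No regulator of this gene programme passed the test. Of 18 genes, 12 were positive with a median of 0.036, and 9 of 18 with a median of 0.00012 after the shift to a common 75th percentile. Polg, the mitochondrial DNA polymerase, and Ppargc1b, a coactivator of respiratory genes, had the smallest p in the list, with differences of 0.13 (adjusted p = 0.467) and 0.12 (adjusted p = 0.472).

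**Figure D4:**
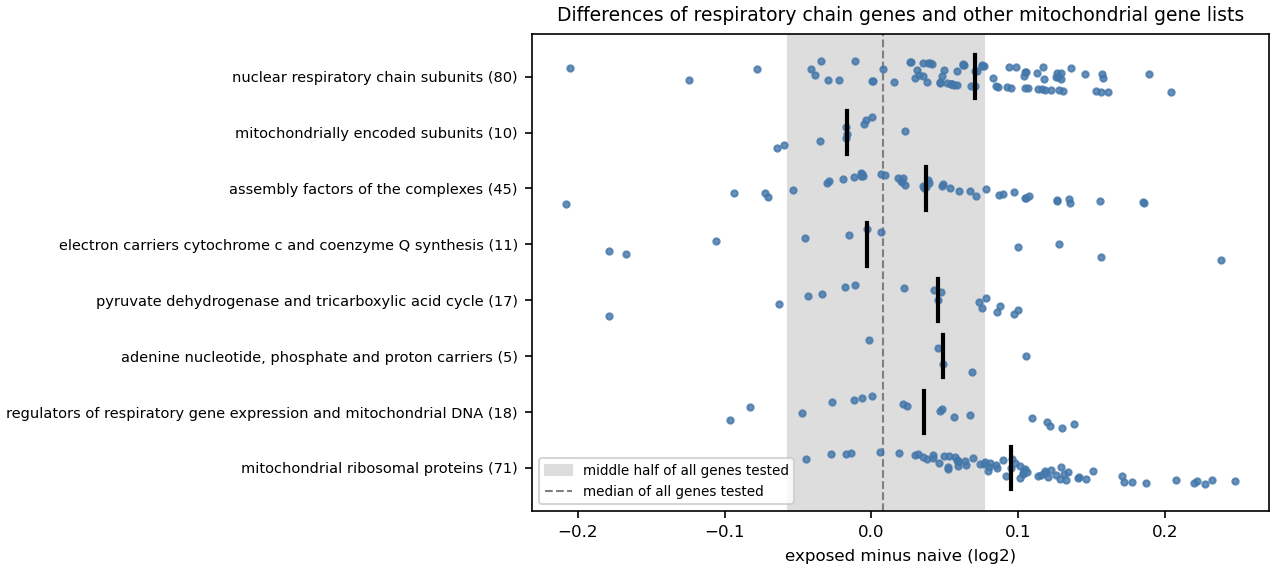
Difference between exposed and naive cells (x axis, log2) for each gene (points) of the 80 nuclear respiratory chain genes and of 7 other mitochondrial lists, with the number of genes in brackets. Black bars are list medians, from -0.017 for the mitochondrially encoded subunits to 0.095 for mitochondrial ribosomal proteins; the grey band spans the middle 50% of all genes tested and the dashed line their median of 0.0082.

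Markers of other cells were measured beside these genes, and their part in the results was not tested. The red pulp macrophage list (8 of 8 measured) had a median difference of 0.63, with 7 positive and 0 called by limma. In it 4 had an unadjusted p under 0.05, and 1, Cd5l, was called higher when number sets were blocked. The list mean ranged from 7.99 to 9.20 on the naive arrays and from 8.64 to 10.64 on the exposed arrays. For each of the 8 genes the highest level of all arrays was on exposed array 1. The next highest was on exposed array 2 for all but Adgre1. B cell genes, which lymphoma cells would carry, had a median of 0.066 over 7 of 8 measured, with means of 6.88 to 7.11 and 6.87 to 7.23. Of the 7 B cell genes 5 were positive and 2 negative. They ran from -0.35 for Blk (adjusted p = 0.0542, and 0.0411 when blocked) to 0.36 for Cd79a (7.66 and 8.02, adjusted p = 0.452). Of these 7 genes, 3 had an unadjusted p under 0.05, 2 higher and 1 lower, where 12.2% of all genes had such a p. T cell genes (4 of 6 measured, median 0.17, 5.22 to 5.33 and 5.20 to 5.58) and NK cell genes (5 of 5, median 0.25, 4.88 to 5.16 and 5.04 to 5.32) were mostly dim, with 3 of each list at or below the dim mark, and had 3 positive genes each; the NK receptor gene Ncr1 was called (0.46, adjusted p = 0.0289), where 0.879% of all genes were called higher. Neutrophil and monocyte genes had a median of 0.17 (6 of 6 positive, 5.93 to 6.19 and 6.12 to 6.58; 1, Csf3r, called higher when blocked) and plasmacytoid dendritic cell genes one of -0.016 (8.19 to 8.42 and 8.18 to 8.40). The single erythroid gene measured, Klf1, was below the mark. An unadjusted p under 0.05 was found for 2 of 4 T cell, 3 of 5 NK cell and 2 of 6 neutrophil and monocyte genes, all of them higher. It was found for 0 of 4 plasmacytoid dendritic cell genes. The fit with number sets blocked called 2.78% of all genes, 1.65% upwards and the rest downwards.

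Within the dendritic cells, type 1 markers had a median of 0.029 (4 of 5 positive, 10.67 to 11.01 and 10.65 to 11.01), which turned to -0.0062 with 2 of 5 positive after the shift to a common 75th percentile. Type 2 markers had a median of -0.38 (10.71 to 10.96 and 10.35 to 10.64), with 5 of 6 negative. Of these, 2 of 6, Cd209a and Clec4a4, were called lower, where 0.546% of all genes were. When number sets were blocked 4 of 6 were called lower, Itgam and Cd4 too. That fit called 617 of all genes (2.78%), 365 of them higher (1.65% of all genes) and the rest lower. The sort marker Itgax was at 12.11 ± 0.08 (SD, n = 6) and 11.98 ± 0.13 (SD, n = 5; adjusted p = 0.359).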

How the data were processed

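Expression was measured on 1-colour Affymetrix arrays, 1 per sample. The deposited values are log2 expression per probeset, made by the authors with RMA per the submitters' processing notes (version and genome build not given in the sources used here); RMA sets arrays to a common scale, so a shift shared by most genes would be removed. The table lists 41801 probesets, 7329 of them without values. The given probe table names 1 gene for 23521 of the other 34472, several for 1814 and none for 9137. The probeset with the highest mean over all arrays stood for a gene, which left 22180 genes. Differences were tested with limma 3.58.1 in R 4.3.3 (lmFit, eBayes with trend) over all genes with Benjamini-Hochberg adjustment, and a gene counted as changed at an adjusted p under 0.05. SE and 95% limits are limma's. The number of arrays limits the precision.

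The scripts were tested on simulated data. The genes, lists and tests were chosen with earlier results of these data known, so lists are described by counts and medians only. Genes were named by rule: in each complex the largest differences in each direction, calls, core subunits, tissue forms with their counterparts, and the smallest p-values of other lists. Genes outside that rule are named only to complete a complex or a count, after their values were seen. The last exposed array is numbered 6 in its title and 5 in another field. Proteins were not used here. Alternatives were limma without trend, array weights, 3 rescalings, removal of dim genes, averaging over probesets of a gene, blocks by replicate number or number set, each number set alone, and each array left out. The promoters shown were chosen after their matches and values were seen.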

Additional observations from a re-analysis of the deposited data

Results flagged for a closer look

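Within each group, the highest or lowest array was compared with the others for the means of the 5 complexes and for 44 named genes, 98 groups in all, and in 8 of them a single array stood apart; chance gives about 1 in 20. On the naive side, array 1 had the lowest Sdhd level (9.14, against 9.32 to 9.41 on the others), array 2 the lowest Cox5a level (9.70, against 9.94 to 10.03), array 5 the lowest Cox8a level (10.82, against 11.04 to 11.10) and array 6 the highest Cox8b level (4.82, against 4.60 to 4.66). Exposed array 2 stood high for Sdhc (8.91, against 8.51 to 8.58) and with it for the complex II mean (9.61, against 9.40 to 9.44). Exposed array 6 had the highest Cox6b1 level (9.90, against 9.71 to 9.76) and exposed array 3 the highest Atp5j2 level (6.04, against 5.86 to 5.90).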

How the results depend on the processing

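In all alternatives but 1 no respiratory chain gene was called; with the number set as a block 1 was called higher, Atp5b. Leaving out each array in turn gave 0 calls throughout, and mean differences of 0.052 to 0.092 for complex I, 0.052 to 0.11 for II, 0.061 to 0.089 for III, 0.052 to 0.079 for IV and 0.043 to 0.068 for V. The means of the complexes stayed positive in every alternative run. Among the 80 genes, differences that were not called changed sign for 11 after the shift to a common 75th percentile, for 17 in arrays 4 to 6 alone and for 3 in arrays 1 to 3 alone, and ranges with 1 array left out crossed 0 for 16. Values follow for the genes chosen by the naming rule only. After the shift to a common 75th percentile those that turned were Ndufa4l2 (-0.034), Sdha (-0.0062), Uqcrc2 (-0.0029), Cox6b1 (-0.0048), Cox8c (-0.028) and Atp5c1 (-0.0085; -0.00268 after quantile normalisation). In arrays 4 to 6 alone they were Ndufa4l2 (-0.091), Uqcrq (-0.056), Cox4i1 (-0.011), Cox4i2 (-0.034), Cox6b1 (-0.068), Cox8c (-0.058), Cox7c (0.0095) and Atp5j2 (0.14), and in arrays 1 to 3 alone Cox6b2 (-0.0036). Ndufa4l2 was at -0.00686 with array weights and -0.018 when the number sets were blocked, and Cox5b at -0.010 with the mean of its probesets, whose second member pointed down. With 1 array left out, the ranges of these genes that crossed 0 were -0.073 to 0.044 for Ndufa4l2, -0.038 to 0.076 for Cox6b1, -0.052 to 0.047 for Cox8c, -0.0040 to 0.056 for Atp5c1, -0.080 to 0.087 for Atp5j2 and -0.072 to 0.016 for Atp5l. The cause was not tested.

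Arrays of the same number in both groups were not treated as pairs: the correlation of their deviations from the group means lay between 0.0880 and 0.231 over 5 pairs, and 2 of the 5 exposed arrays correlated best with their own number. With a replicate block by the title's number, 341 genes were called, and by the other field's number 182, and complex I averaged 0.065 and 0.074. These blocks leave naive array 5 and naive array 6, respectively, without a partner. Without a block, 316 genes were called on all arrays, and 155 each when naive array 5 or naive array 6 was left out. None of these fits called a respiratory chain gene.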

Other observations

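Some deposited values are identical on several arrays to every digit. For 32 of the 80 respiratory chain genes (40.0%), and for 45.6% of all genes, at least 2 arrays share a value. For 7 of the 80 genes (8.75%, against 10.1% of all genes) at least 4 arrays do: Ndufa12, Ndufa7 and Cox8b with 5 arrays each, and Ndufa5, Ndufs4, Cox7a1 and Atp5o with 4 each. Ndufa12 had the value 8.28 on naive arrays 4 and 5 and on exposed arrays 1, 2 and 4. These genes were chosen after their values were seen.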
